A study of Mus musculus with 8 samples.

Results

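Gm21738, Gm10717 and Gm11168 are predicted mouse genes that lie inside tandem repeats. Together they named 4 of the 28265 union peaks in a map of RNA:DNA hybrids from mouse muscle stem cells (MuSCs). The 3 genes were chosen on the measured signal, because their peaks carried some of the highest values of the series, and a peak belonged to them when its gene symbol, read before any semicolon, was one of these names. Gm21738 named 1 peak on chromosome 14, Gm11168 named 1 peak on chromosome 9, and Gm10717 named a long and a short peak on chromosome 9. All 4 were autosomal and passed the filter on low values that left 25815 of 27837 autosomal peaks for the genotype fit. Their levels and their difference between genotypes chose them and are therefore given as a description without a test.

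The study asked where R-loops form in MuSCs when Kmt5b, the gene of a methyltransferase that converts monomethylated to dimethylated histone H4 lysine 20, is inactivated. DNA-RNA immunoprecipitation sequencing (DRIP-seq) with the S9.6 antibody gave 3 libraries of control cells (Ctrl, labelled Pax7CreERT/Suv4-20h1WT) and 3 of mutant cells (Kmt5b sKO, labelled Pax7CreERT/Suv4-20h1KO), Suv4-20h1 being another name of Kmt5b. The cells were cultured from tamoxifen-treated mice of 8 to 12 weeks on a C57BL/6 background. Both genotypes carried the tamoxifen-inducible Cre under control of Pax7, a gene of muscle stem cells. The Kmt5b allele was intact in Ctrl and flanked by loxP sites in Kmt5b sKO, so that its removal depended on Pax7 activity. One input library of each genotype served in peak calling and gave no values here. No sample of the series was labelled as RNase H treated, so the scores have no such control here. The labels do not say how many mice stood behind a library, so the spread given below is the spread between libraries.

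R-loops are structures in which an RNA pairs with its DNA template and the other DNA strand is left unpaired, and the S9.6 antibody binds the RNA:DNA hybrid. Mouse chromosomes have their centromere at one end, next to long arrays of satellite repeats that are packed as heterochromatin and marked by methylated histones, H4 lysine 20 methylation among them. Only fragments of such arrays are present in the assembled genome, and gene prediction places short open reading frames in them. RNA from satellite repeats is known to stay on chromatin as hybrids with DNA.

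The repeat character of the peaks could be read directly from the reference sequence. The Gm11168 peak, the Gm10717 long peak and the Gm10717 short peak resembled themselves most when shifted by 234 bp, with 71.3%, 77.0% and 83.8% of bases identical. Typical shifts between 20 and 1000 bp gave 31.2%, 31.2% and 30.8%. In the Gm21738 peak the best shift was 351 bp (55.4%), with 52.9% at 234 bp and 51.4% at 58 bp. Other tested peaks reached a median of 29.9% at their own best shift, and 95% of them stayed under 40.3%.

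**Figure D1:**
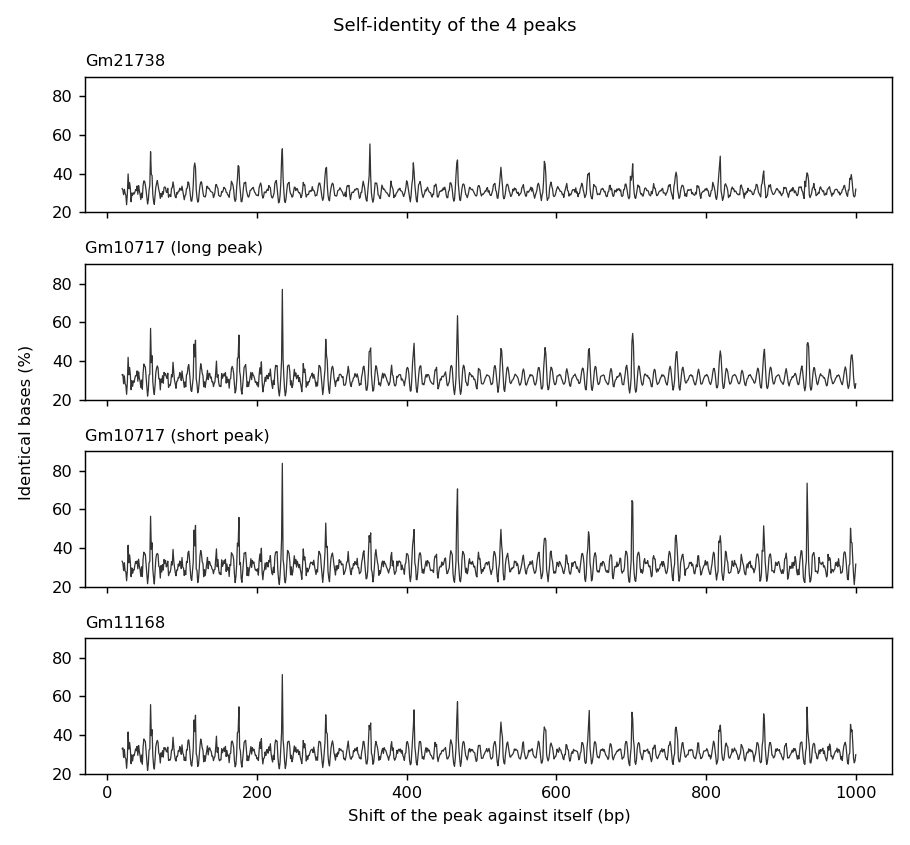
Percentage of identical bases (y axis) when the reference sequence of each of the 4 peaks is shifted against itself by 20 to 1000 bp (x axis). The chromosome 9 peaks have their highest spike at 234 bp (71.3% to 83.8%) and smaller spikes every 58 or 59 bp, and Gm21738 has lower spikes of similar height at 58, 234 and 351 bp.

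The first annotated start codons of the 3 genes stood at the same place of this repeat. One 234-base unit read from each start codon is shown because it is the sequence the 4 peaks have in common, with capitals at bases that do not match the Gm11168 unit in a global alignment (substituted or inserted bases). The Gm11168 unit lay at chr9:3003346-3003579 (plus strand), the Gm10717 unit at chr9:3025417-3025650 (plus strand) and the Gm21738 unit at chr14:19418697-19418930 (minus strand), all in GRCm38 (mm10) and counted from 1.
Gm11168: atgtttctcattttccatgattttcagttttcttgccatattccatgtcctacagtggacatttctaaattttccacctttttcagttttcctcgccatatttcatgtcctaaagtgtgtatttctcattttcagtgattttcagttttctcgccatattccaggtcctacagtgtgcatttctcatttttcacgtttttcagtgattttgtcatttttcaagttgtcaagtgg
Gm10717: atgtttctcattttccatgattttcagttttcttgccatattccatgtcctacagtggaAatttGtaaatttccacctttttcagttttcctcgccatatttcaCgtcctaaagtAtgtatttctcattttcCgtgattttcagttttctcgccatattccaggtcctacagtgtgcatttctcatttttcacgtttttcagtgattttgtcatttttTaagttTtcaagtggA
Gm21738: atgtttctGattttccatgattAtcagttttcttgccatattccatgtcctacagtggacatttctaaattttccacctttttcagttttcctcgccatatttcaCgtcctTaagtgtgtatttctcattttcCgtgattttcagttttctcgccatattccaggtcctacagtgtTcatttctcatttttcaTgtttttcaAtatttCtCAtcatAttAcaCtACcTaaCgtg

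The Gm10717 unit differed from the Gm11168 unit by 9 edits (96.2% identity). The Gm21738 unit differed from it by 22 edits (90.6%) and from the Gm10717 unit by 25 (89.3%). Counting matches of at least 70% to the Gm11168 unit that did not overlap, the Gm11168 peak held 28 copies, the Gm10717 long peak 38, the Gm10717 short peak 6 and the Gm21738 peak 15. All copies on chromosome 9 ran in the plus direction and all 15 in Gm21738 in the minus direction, which is the annotated strand of each gene. The copies covered 86.1%, 96.1%, 87.6% and 78% of the known bases of those peaks, with a median identity of 95.5%, 95.7%, 96.4% and 91.9%. All 4 peaks were thus built from copies of one unit, with the Gm21738 copies farther from the Gm11168 unit than the chromosome 9 copies.

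The annotation of these genes was that of automatic prediction. GENCODE vM21 placed Gm11168 (ENSMUSG00000096385) at chr9:3003346-3006948 with 4 transcripts, Gm10717 (ENSMUSG00000095891) at chr9:3025417-3033289 with 9 and Gm21738 (ENSMUSG00000095280) at chr14:19415857-19418930 with 1. Of the introns of these transcripts, 6 of 16 in Gm11168, 12 of 29 in Gm10717 and 1 of 5 in Gm21738 were 10 bp or shorter. Every annotated exon base in the peaks was also coding sequence, so that no untranslated region was annotated. Exons took up 24.3% of the Gm11168 peak, 32.2% of the Gm10717 long peak, 56.1% of the short peak and 14.8% of the Gm21738 peak, and the rest was intron or lay outside the gene. RefSeq entries for the promoters of the 3 genes were not used here.

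The 4 peaks were more heavily masked and lower in GC than most other peaks of their chromosomes. Soft-masked bases, the repeats of the reference, made up 96.4% of the Gm11168 peak, 95.6% and 96.3% of the Gm10717 long and short peaks and 85.2% of the Gm21738 peak. The other 1658 peaks of chromosome 9 had a median of 27.8%, and the other 980 of chromosome 14 a median of 28.2%. GC content was 34.6% to 35.2% in the 4 peaks, against medians of 41.9% and 41.3%. Both chromosomes hold many other masked or AT-rich peaks. Of the other peaks of chromosome 9, 5% were over 78.5% masked and 5% were under 34.2% GC. On chromosome 14, 5% were over 82.8% masked and 5% were under 33.2% GC, so the GC of the 4 peaks was low but not outside that range.

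The authors kept uniquely aligned reads, so the number of times a stretch of the peak occurs in the reference bears on what could be counted. On the Gm21738 peak 99.9% of all 150-base stretches occurred once in the genome, as in nearly all other peaks of chromosome 14 (median 100%). On chromosome 9 that share was 57.3% for Gm11168, 59.2% for the Gm10717 long peak and 45.8% for the short peak. For 50-base stretches it was 80.9% for Gm21738, and 18.9%, 18.0% and 14.9% for the 3 chromosome 9 peaks. The paper's methods give paired reads about as long as the 150-base stretches, so the 150-base shares are closer to what could be counted. The score per kb of the chromosome 9 peaks was lower than that of Gm21738, as given next, and the part of unique alignment in that order was not tested. Reads from copies that the assembly lacks could not be told apart from those of the assembled copies.

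Signal at the 4 peaks was high in every library. The score, a spike-in scaled sum of S9.6 coverage over a peak, was divided by peak length to give a score per kb. Input was not set against it here, so a high level is not an enrichment over input. The Gm21738 peak (chr14:19415200-19419799, 4600 bp) had 1157, 1692 and 1321 per kb in Ctrl 1, 2 and 3 and 4079, 3887 and 3377 in Kmt5b sKO 1, 2 and 3. All 3 Kmt5b sKO libraries lay above all 3 Ctrl libraries, as they did in 41.5% of all tested peaks, and the lowest of them was 2.0 times the highest Ctrl library.

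The Gm11168 peak (chr9:2999800-3007599, 7800 bp) had 445, 648 and 509 per kb in the Ctrl libraries and 1569, 1484 and 1310 in the Kmt5b sKO libraries. The Gm10717 long peak (chr9:3022000-3031199, 9200 bp) had 422, 608 and 486 in Ctrl and 1466, 1419 and 1223 in Kmt5b sKO. The Gm10717 short peak (chr9:3031800-3033399, 1600 bp) had 402.5, 589 and 455 in Ctrl and 1418, 1333 and 1181 in Kmt5b sKO. Peak coordinates are those of the deposited table, whose starts can be 1 base lower than in a genome browser. The order of the libraries was the same in all 4 peaks, with Ctrl 1 lowest, Ctrl 2 the highest of the Ctrl libraries and Kmt5b sKO 1 the highest of all. The genotypes did not overlap at any of them, from which nothing is read because the contrast had chosen the genes.

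In the order of levels, Gm21738 stood first with a mean of 1390 ± 274 per kb in Ctrl and 3781 ± 363 in Kmt5b sKO (n = 3, SD). Gm11168 followed with 534 ± 104 and 1454 ± 132, then the Gm10717 long peak with 505 ± 94.7 and 1369 ± 129 and the short peak with 482 ± 96 and 1311 ± 120. In Ctrl the means of the 3 chromosome 9 peaks differed by less than the SD between libraries. In Kmt5b sKO this held for neighbours in the order, while Gm11168 and the Gm10717 short peak differed by slightly more than either SD. Gm21738 stood above all of them by more than the SD in both genotypes. Within each library, however, the order of the 4 peaks was the same.

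**Figure D2:**
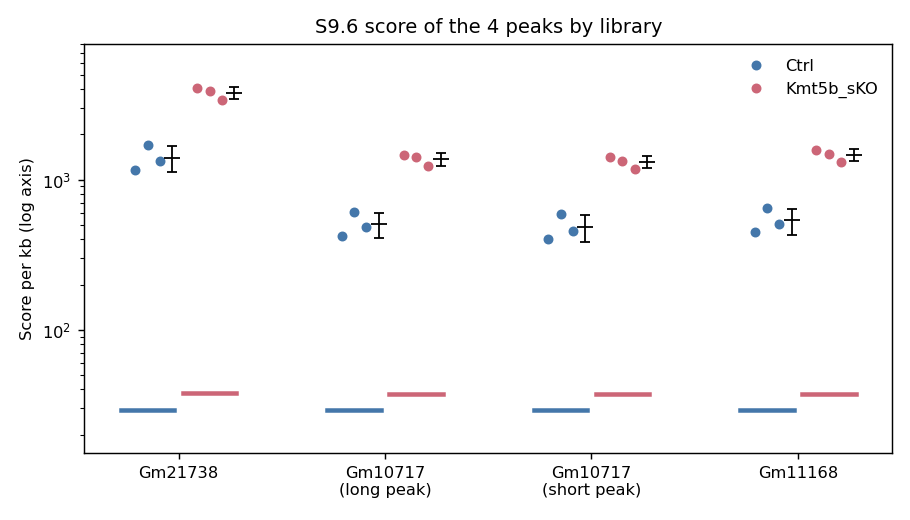
Score per kb (y axis, log scale) of the 4 peaks in the 3 Ctrl (blue) and 3 Kmt5b sKO (red) libraries. Black marks give mean ± SD (n = 3) and coloured bars the mean, over the 3 libraries, of the median of all other peaks on the same chromosome; each red group lies above its blue group, and Gm21738 lies above the chromosome 9 peaks in both genotypes.

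The 4 peaks kept their proportions to one another almost exactly. The score of Gm21738 was 1.52 to 1.55 times that of Gm11168 in the 6 libraries, although each score varied by more than 3-fold between its lowest and highest library. The ratio of Gm21738 to the Gm10717 long peak ran from 1.36 to 1.39, and that of the long to the short Gm10717 peak from 5.94 to 6.14. The coefficient of variation of the 6 pairwise ratios over libraries was between 0.538% and 1.5%. Measured as the SD over libraries of the log2 ratio to the summed score of the 4 peaks, the peaks themselves gave 0.0041 to 0.012. They are part of that sum, which lowers their own values. The 12 other autosomal peaks that held at least 10% of 25-base stretches found in the 4 peaks gave 0.014 to 0.55, with a median of 0.041 and Gm10719 lowest. The median over 1352 other autosomal peaks with a mean score over 600 was 0.81. This SD runs over both genotypes, so it takes in the genotype difference that had chosen the genes. Nothing is read from the distance between these values, and an SD within each genotype was not computed.

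Relative to the genotype, the score of Gm21738 was 6394 ± 1259 in Ctrl and 17393 ± 1670 in Kmt5b sKO (n = 3, SD), a log2 fold change of 1.46 ± 0.14 (SE) on the log2(score + 1) scale. The same quantity was 1.46 ± 0.13 for Gm11168, 1.45 ± 0.13 for the Gm10717 long peak and 1.46 ± 0.13 for the short peak. The ratios of the mean scores were 2.72, 2.72, 2.71 and 2.72. All 4 were past the study's thresholds (a fold change above 1.5 with an adjusted p below 0.1), as were 32.9% of all tested peaks in this direction, and 0.883% in the other. Nothing is read from that count, since the contrast had chosen the genes. The median log2 fold change over all 25815 tested peaks was 0.35.

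The 4 peaks took a larger part of the whole autosomal signal in Kmt5b sKO. They made up 0.0199% of the length of the autosomal peaks, and held 0.385% ± 0.036 of the summed score in Ctrl and 0.916% ± 0.092 in Kmt5b sKO (n = 3, SD). The range was 0.344% to 0.415% in Ctrl and 0.824% to 1.01% in Kmt5b sKO. Nothing is read from the lack of overlap, because the contrast had chosen the genes. By score, all Kmt5b sKO libraries lay above all Ctrl libraries at 41.5% of all tested peaks. A share within a library does not depend on the scale between libraries, which the spike-in had set.

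The comparison with other peaks of the same chromosome arm gave the same order. Mouse chromosomes have a single long arm, so all other peaks of the chromosome served as reference. Gm21738 stood at 42.1, 52.2 and 47.8 times the median score per kb of chromosome 14 in Ctrl 1, 2 and 3 and at 109.8, 101.4 and 89.8 times in Kmt5b sKO 1, 2 and 3. Gm11168 stood at 16.2, 20.2 and 18.4 times the median of chromosome 9 in Ctrl and at 42.9, 39.0 and 35.3 times in Kmt5b sKO. The Gm10717 long peak gave 15.3 to 18.9 times in Ctrl and 32.9 to 40.1 times in Kmt5b sKO, and the short peak 14.6 to 18.3 and 31.8 to 38.8 times.

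The mean multiple of Kmt5b sKO was 2.12 to 2.14 times that of Ctrl at the 4 peaks, less than the ratio of 2.71 to 2.72 of the scores, since the medians of the chromosomes were higher in Kmt5b sKO too. The median of chromosome 9 was 27.5, 32.1 and 27.7 per kb in the Ctrl libraries and 36.6, 38.0 and 37.1 in the Kmt5b sKO libraries. With the mean of the other peaks as reference, which high peaks raise, the median of that ratio over the 4 peaks was 1.88.

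Few peaks of either chromosome came near these values. On chromosome 14, Gm21738 had the highest mean score per kb over the 6 libraries (2586), and the next peak, an unnamed peak of 200 bp at chr14:8286600-8286799, had 228. That peak had scores of 25, 39 and 34 in Ctrl and 66, 53 and 57 in Kmt5b sKO, a log2 fold change of 0.84 ± 0.30 (SE). On chromosome 9, Gm11168 and both Gm10717 peaks ranked 2, 3 and 4 with 994, 937 and 896. Above them stood only the peak of Gm33838 (chr9:35304600-35305799) with 1128, and below them Gm17535 with 799, an unnamed peak near the far end of the chromosome (chr9:124256200-124257999) with 764 and Gm10719 with 732.

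Among all autosomal peaks, Gm21738 ranked second after Gm10800 on chromosome 2 (2790 per kb), and Gm11168 and the Gm10717 long and short peaks ranked 8, 9 and 10. The peak just above them was that of Gm33838, and the peak just below had 851. Gm10801 (1648), Gm26917 (1495), an unnamed peak at chr15:75084600-75087199 (1253) and a peak in Chl1 (1142) made up the rest of the first 10. Gm26917 is a predicted gene in ribosomal RNA-like sequence of chromosome 17.

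The genotype difference on these chromosomes was smaller at most other peaks. The median log2 fold change was 0.32 over 1557 other tested peaks of chromosome 9 and 0.34 over 897 of chromosome 14, and 482 (31.0%) and 292 (32.6%) of them were called higher in Kmt5b sKO. A log2 fold change above that of the lowest of the 4 peaks was seen at 33 of the peaks of chromosome 9 (2.12%) and at 43 of chromosome 14 (4.79%). The 12 other tested peaks of chromosome 9 with over 100 per kb had a median of 1.44 and the 11 of chromosome 14 a median of 1.66. This level is a mean over both genotypes, so a high score in Kmt5b sKO raises level and change alike, and nothing is read from it. Gm33838 and the 6 other peaks at the start of chromosome 9 were among the 12. By score not divided by length, tested peaks with a mean over 100 had a median of 0.15, against 0.35 over all tested peaks.

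**Figure D3:**
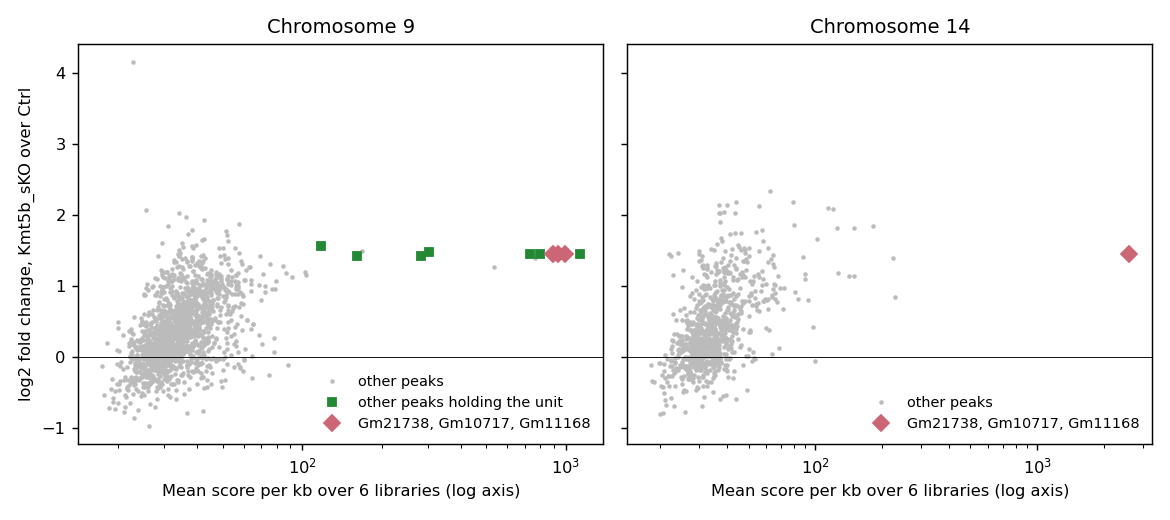
Mean score per kb over the 6 libraries (x axis, log scale) against the log2 fold change of Kmt5b sKO over Ctrl (y axis) for all tested peaks of chromosome 9 (left) and 14 (right). Red diamonds are the peaks of Gm21738, Gm10717 and Gm11168, at 1.45 to 1.46, and green squares other peaks that hold the repeat unit at 70% identity or more, which reach the same change at levels from 117 to 1128 per kb.

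Gm11168 and Gm10717 lay at the very start of chromosome 9. The assembled sequence of the chromosome began at base 3000001, inside the Gm11168 peak. From there 9 peaks, the 3 of these genes among them, covered 82.0% of the first 38.8 kb, and the next peak came only 150 kb later. The 6 other peaks of this cluster held 117 to 799 per kb, a median of 292.5. Their log2 fold changes were between 1.42 and 1.56, with a median of 1.46, and 6 of 6 were called higher.

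Gm10719 and Gm17535, which are predicted genes too, accounted for most of the signal of these 6 peaks. Gm10719 had scores of 2013, 2954 and 2366 in Ctrl and 7107, 6793 and 5996 in Kmt5b sKO. Gm17535 had 1629, 2356 and 1929 in Ctrl and 5840, 5551 and 4745 in Kmt5b sKO. Both had a log2 fold change of 1.45 to 1.46 ± 0.13 (SE). All Kmt5b sKO libraries lay above all Ctrl libraries in both, as they did in 41.5% of all tested peaks. The peak of Gm10721, of 400 bp, had 47, 74 and 64 in Ctrl and 168, 169 and 157 in Kmt5b sKO.

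Past the gap the signal was at the level of the rest of the chromosome. The 24 peaks up to 500 kb from the members had 26.0 to 59.9 per kb, with a median of 36.9. Of 23 that were tested, 8 were called higher and 0 lower by limma, with a median log2 fold change of 0.49. These shares were near the 32.9% and 0.883% of all tested peaks. They lay mostly in Alkbh8, a tRNA methyltransferase gene, and in Cwf19l2, a gene of a splicing-related protein. The largest Alkbh8 peak (chr9:3379600-3389399) had scores of 245, 315 and 218 in Ctrl and 404, 254 and 332 in Kmt5b sKO, where the genotypes overlapped.

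**Figure D4:**
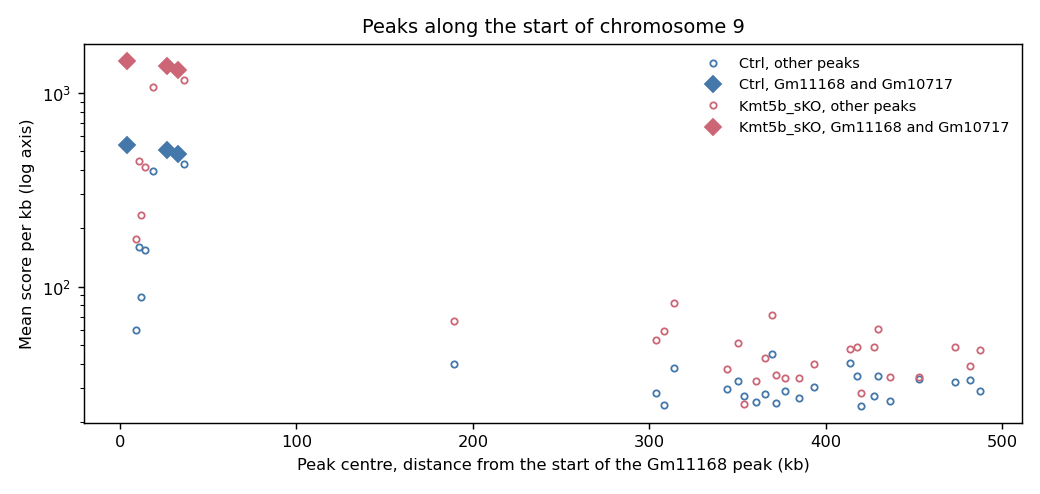
Mean score per kb (y axis, log scale) of the peaks at the start of chromosome 9, by the distance of their centre from the start of the Gm11168 peak (x axis, kb), for Ctrl (blue) and Kmt5b sKO (red). Filled diamonds are Gm11168 and Gm10717 and open circles other peaks; the signal drops from as much as 1454 per kb within the first 40 kb to 26.0 to 59.9 (mean of both genotypes) after a gap of 150 kb.

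Gm21738 stood alone. The nearest peak before it was 556 kb away and the nearest after it 188 kb, and only 2 peaks lay within 500 kb. They lay side by side (chr14:19607600-19608999 and chr14:19609400-19611599) and had 53.8 and 125 per kb. Their log2 fold changes were 1.76 ± 0.24 and 1.82 ± 0.16 (SE), larger than that of Gm21738, and neither held the repeat (best match of the unit 56.8% and 55.1%).

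The unit was then searched in all other 28261 union peaks, a step chosen after the values of the peaks had been seen. Most peaks gave a best match of 52.6% to 57.7% (the central 90% of the other tested peaks). A match of 70% or more was found in 22, of which 21 were tested. The 21 lay on 10 chromosomes, and 15 of them lay away from the start of chromosome 9.

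Peaks with the unit changed like the 4 peaks. All 21 were called higher in Kmt5b sKO and 0 lower by limma, against 32.9% called higher over all tested peaks, and in all 21 the Kmt5b sKO libraries lay above the Ctrl libraries, as they did in 41.5% of all tested peaks. Their median log2 fold change was 1.45, with quartiles of 1.40 and 1.47 and a range of 0.90 to 1.71. Without the start of chromosome 9, 15 of 15 were called higher with a median of 1.44. Below the 70% minimum, 69.0% of 29 other tested peaks with a match of 60% to 65% were called higher, with a median of 0.84. At 65% to 70%, 4 of 4 were, with a median of 1.34. The 21 peaks were also rich in signal, with a median of 365 per kb. Of 103 other tested peaks with over 100 per kb and a best match under 60%, 92 (89.3%) were called higher, with a median log2 fold change of 1.11. The level is a mean over both genotypes and so takes in the change itself. The parts of level and unit in the change were not tested.

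**Figure D5:**
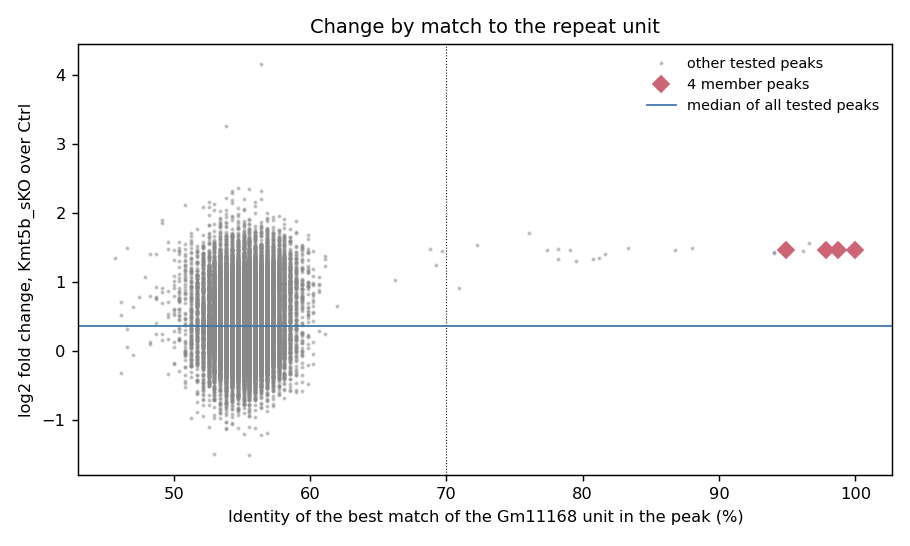
Identity of the best match of the 234-base Gm11168 unit in each tested peak (x axis, %) against its log2 fold change of Kmt5b sKO over Ctrl (y axis). Grey points are other peaks, red diamonds the 4 peaks of Gm21738, Gm10717 and Gm11168, the dotted line marks 70% and the blue line the median of all tested peaks (0.35); the 21 other peaks right of the dotted line lie between 0.90 and 1.71.

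Of those peaks, Gm10800 on chromosome 2 held the closest copy outside chromosome 9. Its scores were 1565, 2232 and 1641 in Ctrl and 5255, 5019 and 4373 in Kmt5b sKO, a log2 fold change of 1.44 ± 0.13 (SE). Gm33838, which had the only higher level on chromosome 9, held a shortened copy. Its scores were 619, 906 and 663 in Ctrl and 2101, 2037 and 1794 in Kmt5b sKO (1.45 ± 0.13). The copies are shown because both peaks had a level like that of the 4 peaks, again with capitals at bases that do not match the Gm11168 unit. The Gm10800 copy lay at chr2:98667068-98667301 (minus strand) and differed by 9 edits (96.2% identity). The Gm33838 copy lay at chr9:35305395-35305615 (minus strand), with 18 substituted and 13 missing bases (86.8%).
Gm10800: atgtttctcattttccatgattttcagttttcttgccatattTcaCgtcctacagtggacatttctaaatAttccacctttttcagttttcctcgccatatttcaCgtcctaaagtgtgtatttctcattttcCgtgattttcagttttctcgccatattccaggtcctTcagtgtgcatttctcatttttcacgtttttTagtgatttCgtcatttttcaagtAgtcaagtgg
Gm33838: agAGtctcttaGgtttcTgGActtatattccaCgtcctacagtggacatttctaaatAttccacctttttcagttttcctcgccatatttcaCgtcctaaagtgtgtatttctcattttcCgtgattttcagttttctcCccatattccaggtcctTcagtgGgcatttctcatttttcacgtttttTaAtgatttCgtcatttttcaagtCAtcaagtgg

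Copies were also found inside peaks of ordinary genes. A peak in Mdga2, a gene of a neuronal cell-adhesion protein, held a match of 81.2% and had 723 per kb with a log2 fold change of 1.34. Peaks in Ank1, an ankyrin of the membrane skeleton, and in Litaf, a lysosomal membrane protein gene, held matches of 78.2% each, with 292 and 398 per kb and log2 fold changes of 1.47 and 1.32. The lowest change of the 21 was that of a peak in Cdk5rap2, a centrosomal protein gene, at 0.90 with a match of 70.9% and 86.4 per kb. These 4 gene peaks lay above the autosomal median of 34.4 per kb.

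Exact sharing gave a narrower group. Of the 22 peaks, 10 shared at least 10% of their 25-base stretches with the 4 peaks, and 12 peaks in all did so. Of these 12, 11 were tested and 11 called higher, against 32.9% over all tested peaks. Their log2 fold changes ran from 1.42 to 1.56, with a median of 1.45. The 4 peaks themselves shared much sequence with each other. Of the distinct 25-base stretches of Gm11168, 47.8% occurred in the Gm10717 long peak and 13.5% in Gm21738, and of those of Gm21738, 12% occurred in Gm11168.

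Likeness of profile was measured as the Euclidean distance of log2(score per kb + 1) over the 6 libraries from the mean profile of the 4 peaks. The 4 peaks themselves lay at distances of 0.70 (Gm11168), 0.91 and 1.07 (Gm10717 long and short) and 2.67 (Gm21738), which was the farthest because of its higher level. Of the 10 other autosomal peaks nearest to that profile, 4 had a unit match of 70% or more. These were Gm33838 (0.27), Gm10801 on chromosome 2 (1.10), an unnamed peak at chr12:3109800-3110599 (1.45) and Gm17535 (1.48), and their log2 fold changes were between 1.44 and 1.46. All 10 peaks were picked on scores of both genotypes, which favours a change like that of the 4 peaks, so nothing is read from that likeness.

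The other 6 were near in level without the unit. The nearest of all was a 400 bp peak in Chl1, a gene of a neural cell-adhesion protein (distance 0.21, best unit match 61.1%), with scores of 212, 305 and 249 in Ctrl and 721, 677 and 576 in Kmt5b sKO. An unnamed peak at chr15:75084600-75087199 followed (0.36, match 56.4%) with a log2 fold change of 1.26 ± 0.13 (SE). An unnamed peak at chr2:98664800-98665399, next to Gm10801, had 1.44 ± 0.14 and a match of 60.3%, and the peak near the far end of chromosome 9 had 1.40 ± 0.13 and 50.9%. The remaining pair, Gm26917 and its neighbour CT010467.1 on chromosome 17, changed less, by 0.90 ± 0.13 and 0.91 ± 0.13.

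Among predicted genes of the same kind, 8 of 13 listed genes had a peak, the 3 members included. Leaving the members out, 5 of 5 tested peaks (Gm10719, Gm10721, Gm10800, Gm10801 and Gm17535) were called higher, with a median log2 fold change of 1.44. Over all tested peaks 32.9% were called higher and 0.883% lower. Those 5 peaks were already among the peaks with the unit counted above, and the list was chosen with earlier results known. Nothing further is read from their count. Of 6 listed genes with ribosomal RNA-like sequence, Gm26917 and Cmss1 had peaks. The Gm26917 peak had scores of 3272, 4724 and 3990 in Ctrl and 7460, 7686 and 6948 in Kmt5b sKO. Of 4 Cmss1 peaks 1 was called higher, and none of the list was called lower.

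Of 29 listed genes of heterochromatin factors 20 had a peak. By limma 10 of their 38 tested peaks (26.3%) were called higher and 0 lower, a share near the 32.9% and 0.883% of all tested peaks, and their median log2 fold change was 0.29. The peaks were at ordinary levels, from 18.5 to 53.5 per kb, and none shared a 25-base stretch with the 4 peaks. Ehmt2 and Ehmt1, which encode methyltransferases of histone H3 lysine 9, had the called peaks with the smallest adjusted p of the list (limma, Benjamini-Hochberg). For each gene the called peak of largest change is given. The Ehmt2 peak (chr17:34899400-34901199) went from 39.3 ± 11 in Ctrl to 86.0 ± 7.0 in Kmt5b sKO (SD, n = 3; log2 fold change 1.14 ± 0.25 SE, limma adjusted p = 9.83e-05), and the Ehmt1 peak (chr2:24887000-24888199) from 38.3 ± 7.51 to 77.7 ± 3.21 (1.02 ± 0.26, limma adjusted p = 0.000795). Of 6 Ehmt1 peaks 4 were called higher, and the other two had log2 fold changes of 0.18 and -0.62 that did not pass the test. The second Ehmt2 peak, with 0.15, did not pass it either.

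Across the series, the summed autosomal score was between 3848297 and 4669752 in the Ctrl libraries and between 4639231 and 4867664 in the Kmt5b sKO libraries, and Ctrl 2 was the highest of the Ctrl libraries. Of 6 muscle stem cell genes, Des, Itga7, Myod1 and Pax7 had a peak, as did Pecam1 of 3 endothelial genes and none of 2 immune and 3 fibro-adipogenic genes. A hybrid signal is not a measure of expression. The peak in Kmt5b (chr19:3805200-3815599) had scores of 412, 658 and 420 in Ctrl and 440, 449 and 484 in Kmt5b sKO. A score summed over this peak does not check the deletion.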

How the data were processed

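DRIP-seq scores of 3 Ctrl and 3 Kmt5b sKO libraries were analysed, with groups taken from the sample labels. According to the methods and the processing notes, the authors trimmed reads with Trimmomatic 0.39, aligned them to mm10 (GRCm38) with STAR 2.7.3a keeping unique alignments, removed duplicates with Picard 2.21.7, called peaks against input with Epic2 (listed as SICER 0.0.41) and left out blacklisted regions, which include satellite repeats. The deposited score is the coverage summed over a union peak, scaled by the authors with the Drosophila spike-in and rounded. It is not a read count, its depth is unknown, and no interval from counting was given.

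Autosomal peaks with a mean score over 30 were fitted with limma 3.58.1 (R 4.3.3; trend, two-sided, Benjamini-Hochberg) on log2(score + 1), and a peak counted as changed above a fold change of 1.5 with an adjusted p below 0.1. The prior degrees of freedom were infinite, so that the SE of a peak came from the trend of variance with level. Sequence was read from the GRCm38 reference, unit matches were edit distances (edlib 1.3.9.post1) on both strands, and 25-base stretches were compared on both strands. The fit and the sequence steps were tested on simulated data. Of 8490 gene identifiers 8483 were named through GENCODE vM21.

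Every member peak was named, with the other peaks within 500 kb, the 5 highest other peaks of each chromosome, the 10 nearest profiles and the listed genes. The members and lists were chosen with earlier results of these data known, and the unit search and its 70% minimum after the values had been seen. Same-numbered Ctrl and Kmt5b sKO libraries did not deviate together (correlations of -0.0094, 0.011 and -0.027). The main fit used no pairs, and these values cannot exclude that the libraries were prepared in pairs. Sex chromosomes were left out of the fit, as in the study. The alternatives tried were another pseudocount, other filters and scalings, a replicate block, no variance trend, each library left out, and other references for the chromosome level.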

Additional observations from a re-analysis of the deposited data

Results flagged for a closer look

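Sex chromosomes were outside the fit, and 2 peaks of the X chromosome were looked up for their likeness to the 4 peaks. The X peak nearest in profile to the 4 peaks (chrX:143483000-143483199) had scores of 48, 74 and 54 in Ctrl and 155, 158 and 138 in Kmt5b sKO, a ratio of mean scores of 2.56, and a unit match of 53.4%. The X peak with the closest copy of the unit (chrX:75665000-75668199, 77.4%) had 55, 107 and 104 in Ctrl and 171, 188 and 177 in Kmt5b sKO, a ratio of 2.02, at 41.8 per kb. Both were noted because they lie outside the peaks compared, and neither difference was tested. The first was picked on its scores in both genotypes, so nothing is read from its ratio. No share over all X peaks is given beside them.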

How the results depend on the processing

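At the 4 peaks the log2 fold change stayed above 0 in all 56 combinations of peak and alternative, from 0.74 to 1.61. In every fit 4 of 4 were called higher, as were 32.9% of all tested peaks in the main fit. Nothing is read from this, because the contrast had chosen the genes and the fits use the same libraries. The median of the 4 peaks was 1.46. It moved to 1.00 with libraries centred on the median peak and to 1.07 with quantile normalization, where Gm21738 was lowest at 0.74. It was 1.33 to 1.61 with 1 library left out. The median of all tested peaks was 0.35 as reported, 0.15 with the same total per library, -0.11 with centring and -0.014 with quantile normalization, and the 4 peaks lay above it by 1.11, 1.10, 1.11 and 1.08. Over all tested peaks, 8484 were called higher and 228 lower. The counts were 1163 and 80 with a mean score over 100, 5579 and 805 with the same total per library, 2647 and 3073 with centring and 2013 and 1953 with quantile normalization. Leaving out 1 library gave 7262 to 9140 higher and 81 to 325 lower, the 81 without Ctrl 2. With the replicate block 8452 were higher and 223 lower, and no call at the 4 peaks changed. The level relative to the chromosome, 27.8 times as a median over the 4 peaks, was 108 times with scores not divided by length. Of the 21 other peaks with the unit, 20 were called with centring and all that were tested in each other fit, with a median of 1.00 to 1.58. The scale between libraries was taken as deposited, since the spike-in reads were not used here.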
